A study of Mus musculus with 4 samples.

Results

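The naive pluripotency transcription factors Nanog, Klf2, Klf4, Klf5, Esrrb, Tfcp2l1, Tbx3, Zfp42, Prdm14 and Nr0b1 were followed in mouse R1 embryonic stem cells (ESCs), an established line, before and after retinoic acid (RA). These 10 genes were taken by symbol from the 24421 genes counted in 4 Illumina TruSeq libraries, and all 10 had counts in every library. According to the methods, the 2 libraries of Undiff come from R1 cells kept with leukaemia inhibitory factor (LIF), whereas the labels call the material embryoid bodies, which are aggregates of ESCs. The 2 libraries of Day4 come from embryoid bodies grown for 4 days without LIF and then for 4 days with RA, a metabolite of vitamin A, whose dose of 2 is in µM in the methods and in mM in the labels. No other treatment or allele is named for either state, and the 2 biological replicates of a state were grown and treated separately. LIF withdrawal, aggregation and RA therefore cannot be told apart in this comparison. Depth ran from 32099074 to 47730944 fragments on genes per library, and fragments that fell on no gene were 12.1% and 13.2% of the total in Undiff and 7.50% and 7.74% in Day4. Pou5f1, which encodes Oct4 and marks ESCs, had 31358 and 31984 normalised counts in Undiff and 142 and 131 in Day4.

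Naive pluripotency is the state of the preimplantation epiblast and of ESCs cultured with LIF. In it, a network of transcription factors that bind one another's genes keeps the cells self-renewing and able to form all tissues of the embryo. LIF feeds this network through STAT3 and Wnt feeds it through beta-catenin, whereas FGF and ERK signalling drives cells out of it. Several of the factors return later in development with other roles, such as Klf4 in epithelia and Tbx3 in limb, heart and yolk sac.

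Of the 10 naive factors, 9 fell in Day4 and Tbx3 rose. A gene was called when edgeR's quasi-likelihood test put the adjusted p at 0.05 or below, the change was 2-fold or more and the mean normalised count was 5 or more, where normalised counts are scaled to a common effective library size. Across all 19891 genes tested, 42.8% were called, of which 20.6% of the genes tested were lower in Day4 and 22.2% were higher. The median log2 fold change was −5.41 over the naive factors and −0.03 over all genes tested. The Undiff and Day4 libraries did not overlap for any of the 10 factors. Together the factors had 1413 and 1574 CPM, which are counts scaled to a common library total, in the Undiff libraries and 62.6 and 62.1 CPM in the Day4 libraries. Without Tbx3, the sum went from 1399.7 and 1556 CPM to 24.0 and 21.8 CPM. In these bulk libraries, fewer cells in the naive state and less RNA per cell cannot be told apart.

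**Figure D1:**
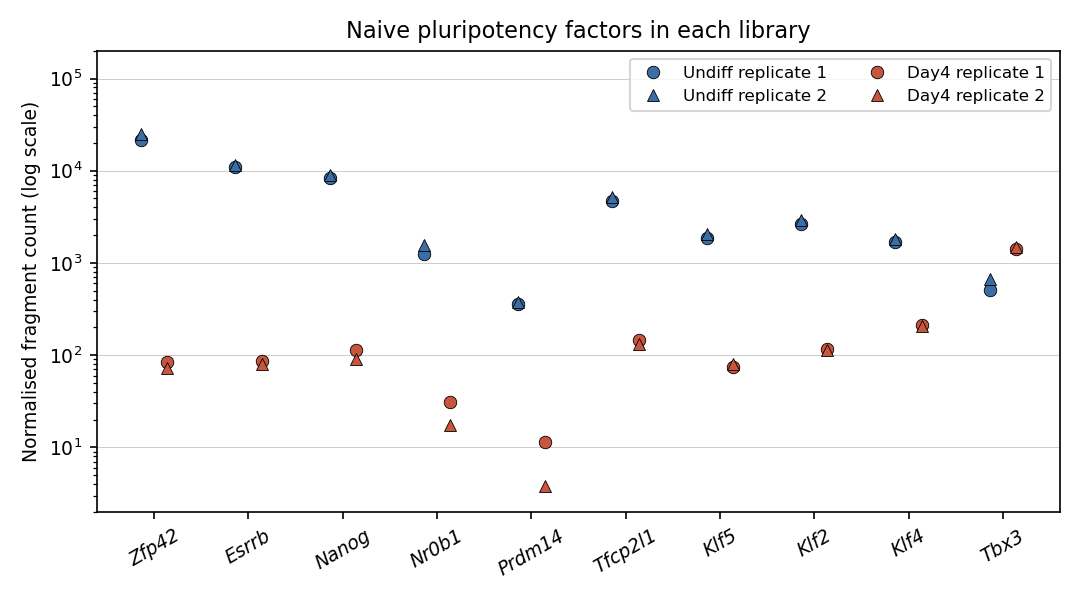
Normalised counts (log10 axis) of the 10 naive factors in each of the 2 Undiff and 2 Day4 libraries, 1 point per library, with circles for replicate 1 and triangles for replicate 2. The points of Undiff lie above those of Day4 for 9 factors, from Zfp42 (23420 against 78.4 on average) to Klf4 (1752 against 209), and below them for Tbx3 (586 against 1442).

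Zfp42, also known as Rex1, encodes a zinc finger protein related to YY1 and is a common marker of naive ESCs. The gene lies at chr8:43295063-43306980 on the reverse strand of GRCm38. It had 21581 and 25260 normalised counts in Undiff and 84.6 and 72.2 in Day4. The replicates of a state lay close together beside the gap between the states. The log2 fold change was −8.24 (SE 0.10, adjusted p = 1.11e-15), the deepest fall among the factors, and left 0.335% of the Undiff mean.

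Nanog, a homeodomain protein whose supply lets ESCs self-renew without LIF, lies at chr6:122707489-122714633 on the forward strand. Its normalised counts were 8417 and 9053 in Undiff and 115 and 90.6 in Day4. Both Day4 libraries were thus far below both Undiff libraries, with a log2 fold change of −6.43 (SE 0.08, adjusted p = 1.47e-15) and 1.18% of the mean left. The annotation holds pseudogenes of Nanog and of Zfp42, and fragments that aligned to several places had been left out by the authors, so that both genes may be counted low.

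Promoter sequences are shown for the genes whose windows held the octamer core or the KLF box, because these are letters bound by core and naive factors themselves. The windows are those of RefSeq on GRCm38.p6, from 250 bases before to 50 bases after an annotated start, and 7 of the 10 factors have 9 windows there, 2 of them for Nanog at neighbouring starts. None were at hand for Tbx3, Klf5 and Prdm14. The stretches below are written 5′ to 3′ in the direction of the gene, with the octamer core TTTGCAT and the KLF box CCACNCCC in capitals. On the forward strand of Nanog, the KLF box stands as its reverse complement.
Zfp42: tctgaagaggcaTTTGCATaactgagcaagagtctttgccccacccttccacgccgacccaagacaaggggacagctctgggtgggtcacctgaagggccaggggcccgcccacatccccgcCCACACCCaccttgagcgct
Nanog: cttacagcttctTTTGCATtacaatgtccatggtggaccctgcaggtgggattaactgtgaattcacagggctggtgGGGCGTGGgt
Tfcp2l1: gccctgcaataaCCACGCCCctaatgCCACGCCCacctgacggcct
The stretch of Zfp42 is chr8:43307065-43307206 on the reverse strand, that of Nanog is chr6:122707402-122707488 and that of Tfcp2l1 is chr1:118627872-118627917, both on the forward strand.

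The octamer core, the letters recognised by Oct4, stood 185 to 179 bases before the start of Zfp42 and 75 to 69 bases before the first start of Nanog. On both strands it occurred in 4.63% of the 32817 mouse windows of 300 bases, and in those of 2 of the 7 factors. The KLF box occurred in 17.6% of all windows and in those of 3 of the 7 factors, with 2 copies each in the windows of Tfcp2l1 and Nanog and 1 in that of Zfp42. In Tfcp2l1 they stood 61 to 54 and 47 to 40 bases before the start. In Nanog they stood 10 to 3 bases before the first start and 24 to 31 bases after it, the latter beyond the stretch shown. Of the other motifs searched, the STAT site TTCNNNGAA occurred in 8.29% of windows and in that of Esrrb among the factors, 178 to 170 bases before its start. The oestrogen-related receptor site AAGGTCA occurred in 4.72% of windows and was not among the letters of the factors' windows. The matches within the factors' windows did not overlap each other. No binding was measured here, and a match of letters is given only as a description.

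Esrrb encodes an orphan nuclear receptor that can stand in for Nanog in self-renewal and is a target of the Wnt input. It lies at chr12:86361117-86521628 on the forward strand. Normalised counts were 11054 and 11560 in Undiff and 85.7 and 80.6 in Day4, so that replicates within a state lay close together. The log2 fold change was −7.09 (SE 0.07, adjusted p = 2.35e-16), with 0.735% of the mean left.

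Nr0b1, or Dax1, is an X-linked nuclear receptor without a classical DNA-binding domain, which acts mainly by binding other factors. It lies at chrX:86191764-86195947 on the forward strand. The Undiff libraries had 1249 and 1566 normalised counts and the Day4 libraries had 31.3 and 17.7. The fall was far larger than the differences between replicates, with a log2 fold change of −5.89 (SE 0.18, adjusted p = 3.53e-12) and 1.74% left.

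Tfcp2l1 belongs to the CP2 family of DNA-binding proteins and is induced by STAT3 downstream of LIF. The gene is at chr1:118627945-118685168 on the forward strand. It had 4647 and 5167 normalised counts in Undiff against 147 and 132 in Day4. These values were clear of each other, with a log2 fold change of −5.14 (SE 0.08, adjusted p = 9.70e-15) and 2.85% left.

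Klf2, Klf4 and Klf5 are zinc finger proteins of the Krüppel-like family that share many binding sites in ESCs, and Klf4 is one of the factors used to reprogramme somatic cells. Klf2, at chr8:72319033-72321656 on the forward strand, had 2635 and 2924 normalised counts in Undiff and 117 and 113 in Day4. Klf5, at chr14:99298691-99315036 on the forward strand, had 1842 and 2076 in Undiff and 74.2 and 80.6 in Day4. Klf4, at chr4:55527143-55532466 on the reverse strand, had 1706 and 1798 in Undiff and 210.0 and 208 in Day4. All 3 were lower in both Day4 libraries, but Klf4 kept more of its RNA than the other two.

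For Klf4 the log2 fold change was −3.07 (SE 0.07, adjusted p = 3.22e-13), which left 11.9% of the Undiff mean. For Klf2 it was −4.60 (SE 0.09, adjusted p = 3.57e-14), with 4.13% left. For Klf5 it was −4.65 (SE 0.10, adjusted p = 1.23e-13), with 3.95% left. Over the 4 pairs of a Day4 with an Undiff library, the log2 ratio of Klf4 ranged from −3.11 to −3.02. Those of Klf2, from −4.70 to −4.49, and of Klf5, from −4.81 to −4.51, did not reach this range, whereas they overlapped each other.

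Prdm14, a PR-domain protein that holds FGF signalling and DNA methylation down in naive cells and is needed for primordial germ cells, had the lowest counts of the set in Day4. It lies at chr1:13113457-13127163 on the reverse strand. There were 361 and 375 normalised counts in Undiff and 11.5 and 3.84 in Day4. The Day4 values rest on 11 and 5 counted fragments, with 95% exact Poisson intervals of 5.49 to 19.7 and 1.62 to 11.7 that cover counting error only. The fall was many times the spread between replicates, with a log2 fold change of −5.67 (SE 0.23, adjusted p = 5.51e-11), but its depth was the least certain of the set. It was −6.54 without Day4 replicate 1 and −5.01 without Day4 replicate 2.

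Tbx3, a T-box repressor, is placed by genetic studies in ESCs on the PI3 kinase branch downstream of LIF, and it was the only one of the 10 factors to rise. The gene lies at chr5:119670669-119684724 on the forward strand. It had 507 and 665 normalised counts in Undiff and 1408 and 1476 in Day4. The lowest Day4 library was above the highest Undiff library, and the rise was 2.46-fold (log2 fold change 1.31, SE 0.09, adjusted p = 2.04e-08). Over the 4 library pairs the log2 ratio ranged from 1.08 to 1.54. The antisense gene Tbx3os1 overlaps 697 bases of Tbx3 and was not counted separately, and the methods do not give the strand setting used for counting TruSeq fragments on genes. Another antisense neighbour, Tbx3os2, had 6 and 7 counts in Undiff and 10 and 8 in Day4.

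**Figure D2:**
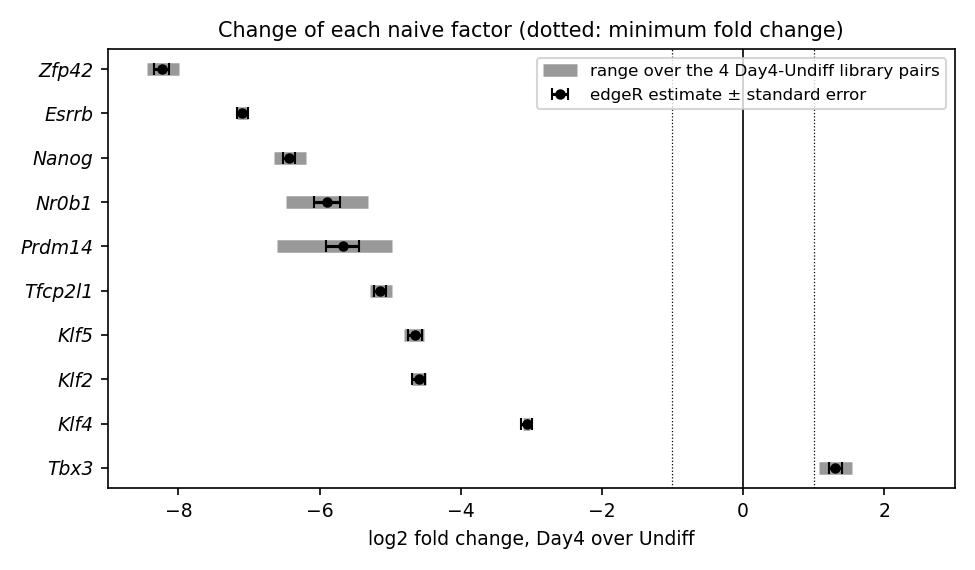
Log2 fold change of Day4 over Undiff for the 10 naive factors, ordered from the deepest fall, with black points and error bars for edgeR's estimate and its SE and grey bars for the range over the 4 pairs of a Day4 with an Undiff library. The dotted lines stand at the smallest change that is called. Zfp42 is at −8.24, Klf4 has the shallowest fall at −3.07, and Tbx3 alone lies to the right of 0 at 1.31.

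Ordered by depth of fall, the factors ran Zfp42, Esrrb, Nanog, Nr0b1, Prdm14, Tfcp2l1, Klf5, Klf2 and Klf4. The ranges over library pairs were apart between Zfp42 and Esrrb, between Esrrb and Nanog, between Tfcp2l1 and Klf5, and between Klf2 and Klf4. The neighbours from Nanog to Tfcp2l1 overlapped in turn, and so did Klf5 with Klf2, so that their order was not resolved beyond the spread.

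Levels of different genes were compared as CPM per kb of exon. In Undiff, Zfp42 was at 325 ± 35.0 CPM per kb (SD, n = 2, as for all levels here), Nanog at 102 ± 4.88 and Esrrb at 48.8 ± 1.37. Next came Klf2 at 39.3 ± 2.75, Nr0b1 at 20.3 ± 3.16, Klf4 at 15.0 ± 0.508, Tfcp2l1 at 13.6 ± 0.969 and Klf5 at 9.83 ± 0.795. Prdm14, at 3.74 ± 0.0874, and Tbx3, at 2.31 ± 0.432, were the lowest. Every pair of neighbours in this order was apart in its replicates, but with the length of the longest transcript Klf5 came before Klf4 and the 2 overlapped.

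In Day4 the order was different, although Tfcp2l1 kept its place. Tbx3 moved from the last place to the first and Klf4 to the second, while Zfp42 moved from the first place to the fifth, behind Klf2 and Nanog, and Esrrb and Nr0b1 moved down to stand just before Prdm14. Tbx3 was at 5.95 ± 0.182 CPM per kb, Klf4 at 1.87 ± 0.0168, Klf2 at 1.70 ± 0.0476, Nanog at 1.25 ± 0.213 and Zfp42 at 1.14 ± 0.131. Nanog and Zfp42 overlapped in their replicates. Klf5 (0.407 ± 0.0229 CPM per kb), Tfcp2l1 (0.405 ± 0.0322), Esrrb (0.376 ± 0.0171) and Nr0b1 (0.371 ± 0.147) overlapped in turn, and Prdm14 was last at 0.0818 ± 0.0579. With the length of the longest transcript, Esrrb (0.529 CPM per kb) came before Tfcp2l1 (0.412), and Klf5 (0.631), Esrrb and Tfcp2l1 were then apart in their replicates.

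The make-up of the set changed accordingly. Zfp42 took 55.2% and 56.9% of the summed level per kb in the Undiff libraries and 8.87% and 7.91% in the Day4 libraries. Tbx3 took 0.368% and 0.425% in Undiff and 41.9% and 45.9% in Day4. Among the 3 Krüppel-like factors, Klf2 was the main one in Undiff with 61.0% and 61.6% of their summed level. In Day4 it took 43.2% and 42.2%, and Klf4 took 47.0% and 47.1% after 23.9% and 22.9% in Undiff. Klf5 took 15.1% and 15.5% in Undiff and 9.74% and 10.7% in Day4. These shares describe what RNA was present and carry no test.

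**Figure D3:**
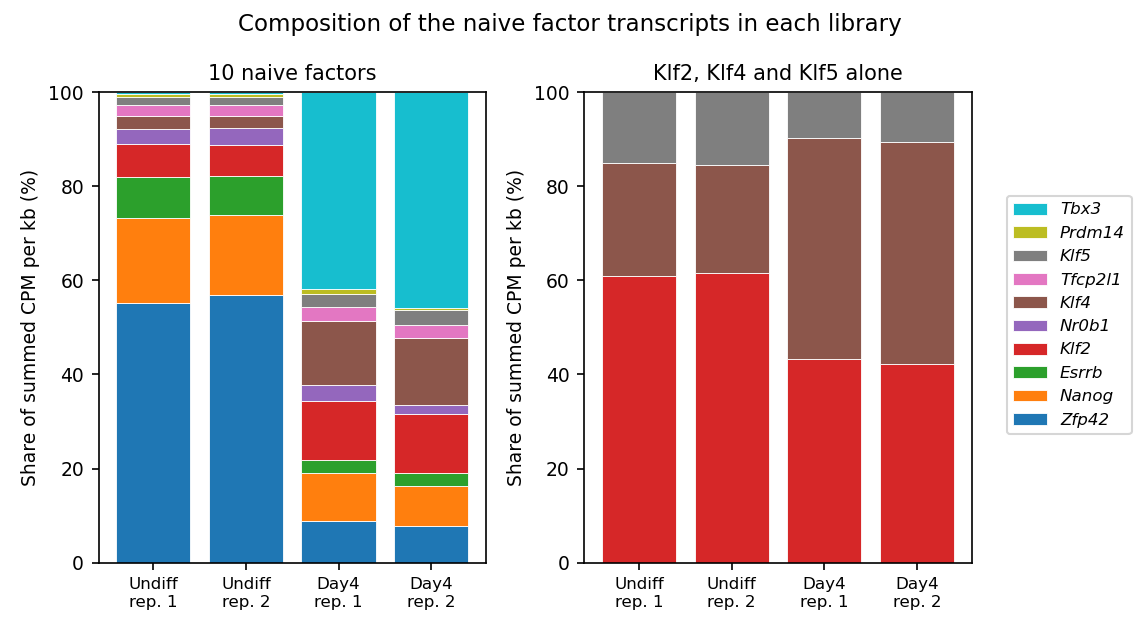
Share of the summed level (CPM per kb of exon, in percent) taken by each factor in each of the 4 libraries, for the 10 naive factors and for Klf2, Klf4 and Klf5 alone. Zfp42 fills most of the Undiff bars (55.2% and 56.9%), Tbx3 is the tallest part of the Day4 bars (41.9% and 45.9%), and Klf4 and Klf2 share most of the Day4 bars of the Krüppel-like factors.

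Relatives of the naive factors were called in both directions, and their counts are read against the 20.6% lower and 22.2% higher of all genes tested. Of 14 other Krüppel-like genes, 6 fell (42.9%) and 1 rose (7.14%), with a median log2 fold change of −0.68. Klf15 went from 512 and 449 to 34.5 and 34.5 normalised counts (log2 fold change −3.80, SE 0.15, adjusted p = 3.18e-11), a fall within the range of the 3 naive Krüppel-like factors. Klf17 had 84 and 67 counts in Undiff and 2 and 1 in Day4. Klf14 was the 1 that rose, from 13.6 and 8.38 to 65.8 and 43.8 normalised counts (log2 fold change 2.24, SE 0.37, adjusted p = 9.43e-05).

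The T-box family gave a divided picture around Tbx3, with 7 of 16 other members higher (43.8%) and 6 lower (37.5%). Its median log2 fold change was −0.30, or 0.26 when genes at 3 counts or fewer in 1 state were set at that floor. Tbx2, the closest relative of Tbx3, had 6.25 and 11.97 normalised counts in Undiff and 4900.2 and 4555 in Day4. It went from near absence to a high level in both Day4 libraries, with a log2 fold change of 9.03 (SE 0.13, adjusted p = 3.12e-15). Tbx4, a hindlimb and allantois gene, rose from 67.7 and 45.5 to 732 and 840 (log2 fold change 3.78, SE 0.15, adjusted p = 2.75e-11). Tbx5, a heart and forelimb gene that lies 147.9 kb from Tbx3 with 0 protein-coding genes between them, had 1 and 0 counts in Undiff and 919 and 1028 normalised counts in Day4. On the other side, the mesendoderm gene Eomes fell from 199 and 141 to 13.6 and 11.5 (log2 fold change −3.78, SE 0.28, adjusted p = 2.45e-08), and T, or brachyury, had 117 and 70 counts in Undiff and 1 and 3 in Day4.

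The PR-domain family had 3 of 13 other members lower and 3 higher (23.1% each), which is close to the shares of all genes tested, at a median log2 fold change of 0.07, or −0.06 with genes at the floor set there. Prdm16, a regulator of brown fat and stem cells, went from 156 and 169 to 29.2 and 23.8 normalised counts (log2 fold change −2.63, SE 0.20, adjusted p = 2.91e-08). Prdm6, a smooth muscle repressor, went the other way, from 7.30 and 4.79 to 566 and 497 (log2 fold change 6.40, SE 0.22, adjusted p = 9.81e-12). Among 10 relatives of Esrrb, Nr0b1, Tfcp2l1 and Zfp42, 3 fell (30%) and 2 rose (20%), again near the shares of all genes, at a median of −0.70. Esrrg, a receptor of the same family as Esrrb, had 4.17 and 7.18 normalised counts in Undiff and 732 and 761 in Day4 (log2 fold change 7.04, SE 0.19, adjusted p = 7.76e-13). Tfcp2, the namesake of the family of Tfcp2l1, rose from 622 and 596 to 2160.2 and 2138 (log2 fold change 1.82, SE 0.06, adjusted p = 6.44e-12). The more distant epithelial factor Grhl2 of that superfamily fell from 2228 and 2386 to 172 and 206 (log2 fold change −3.59, SE 0.08, adjusted p = 2.01e-13). Esrrb and Esrrg, like Tfcp2l1 and Tfcp2, thus moved in opposite directions. The contrast did not extend to Esrra, another relative of Esrrb, or to Ubp1, another relative of Tfcp2l1. Neither was called, at log2 fold changes of 0.30 (SE 0.08) for Esrra and −0.70 (SE 0.04) for Ubp1.

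**Figure D4:**
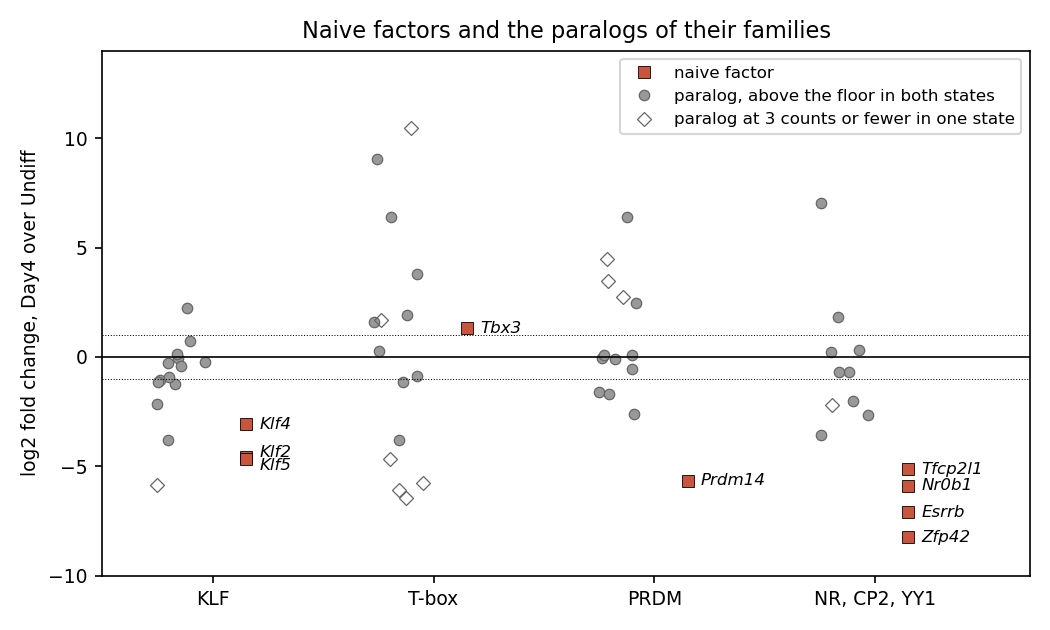
Log2 fold change of Day4 over Undiff for the naive factors other than Nanog (squares) and the other members of their families (circles), in 1 column per family, with dotted lines at the smallest change that is called. Diamonds are genes at 3 counts or fewer in both libraries of a state, whose fitted position is no measured size. The squares other than Tbx3 lie between −8.24 and −3.07, whereas their relatives spread to both sides, as with Esrrg at 7.04 and Tbx2 at 9.03.

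The genes of the inputs to the network had median changes nearer to 0 than the factors. Of 7 genes of the LIF and STAT3 pathway, 4 fell (57.1%), with a median log2 fold change of −1.35. Of all genes tested, 20.6% were lower and 22.2% higher. The receptor gene Lifr went from 4709 and 5201 to 1635 and 1516 normalised counts (log2 fold change −1.66, SE 0.06, adjusted p = 1.59e-11). Socs3, a STAT3 target that feeds back on the receptor, fell from 2424 and 2436 to 789 and 761 (log2 fold change −1.65, SE 0.06, adjusted p = 8.27e-12). Stat3 itself did not reach a 2-fold change, at 4184 and 4164 against 2864 and 2889 (log2 fold change −0.54, SE 0.05, adjusted p = 1.08e-07).

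In the Wnt input, 2 of 6 genes fell (33.3%) and 3 rose (50%), beside 20.6% and 22.2% of all genes tested. The median was 0.77. The target gene Axin2 rose from 489.8 and 457 to 1627 and 1606 normalised counts (log2 fold change 1.77, SE 0.07, adjusted p = 2.20e-11) and the kinase gene Gsk3b rose by 1.66 on the log2 scale. The partner of beta-catenin Tcf7 fell from 4622 and 4293 to 1229.5 and 1175 (log2 fold change −1.89, SE 0.06, adjusted p = 2.04e-12), and Lef1 fell by 1.45 on the log2 scale. Tcf7l1, the repressor of Esrrb and Nanog in ESCs, was not called, at a log2 fold change of 0.23 (SE 0.06).

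In the FGF and ERK input, 5 of 10 genes fell (50%) and 1 rose (10%), beside 20.6% and 22.2% of all genes tested. The median was −1.40. Fgf4, the ligand that ESCs make themselves, went from 8561 and 8117 normalised counts to 4.18 and 6.14 (log2 fold change −10.58, SE 0.11, adjusted p = 2.98e-16). Its feedback inhibitor Spry4 fell from 4473 and 5151 to 234 and 219 (log2 fold change −4.41, SE 0.09, adjusted p = 4.01e-14). The receptor gene Fgfr2 was the 1 that rose, from 1063 and 996 to 2326 and 2283 (log2 fold change 1.16, SE 0.06, adjusted p = 3.59e-10). Of 6 genes tied to the exit from the naive state, in either direction, 1 was called, and it was lower (16.7%), close to the share of all genes tested. It was Zfp281, which fell from 6646 and 7610 to 2947 and 2919 (log2 fold change −1.28, SE 0.06, adjusted p = 1.97e-10).

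Of 14 other genes of the naive state, among them enzymes, membrane proteins and further regulators, 13 fell (92.9%, against 20.6% of all genes tested). Their median log2 fold change was −4.27. Dppa5a, an RNA-binding protein gene of ESCs, went from 41211 and 39044 to 171 and 107 normalised counts (log2 fold change −8.21, SE 0.10, adjusted p = 1.11e-15). Tdh, the threonine dehydrogenase on which mouse ESCs rely, went from 17451 and 18752 to 122 and 72.9 (log2 fold change −7.58, SE 0.11, adjusted p = 2.95e-15). Tet2 was the 1 not called, at a log2 fold change of −0.90 (SE 0.05). The core and formative list fell with them, 8 of 10 genes (80%) at a median of −7.04. Otx2, a factor of the formative state, had 5389 and 3541 counts in Undiff and 0 and 1 in Day4. Fgf5, a marker of that state, was not called, at 81.3 and 76.6 normalised counts against 139 and 171.

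Several naive factors are also expressed in other cell types, so marker levels are given beside them. Prdm14 and Nanog are shared with germ cells, and 6 of 7 germ cell markers fell (85.7%, against 20.6% of all genes tested). The summed level of these markers was 111 and 113 CPM in Undiff and 14.4 and 16.7 CPM in Day4. The 1 not called, Nanos3, had 44.8 and 75.4 normalised counts in Undiff and 58.5 and 67.6 in Day4. Of 9 endoderm markers, 8 rose (88.9%, against 22.2% of all genes tested). The sum of all 9 went from 59.7 and 66.9 to 669 and 661 CPM. Gata6, at 290 and 275 CPM, and Gata4, at 261 and 265 CPM, made up most of the Day4 sum. By contrast, Sox17 reached only 3.86 and 4.42 CPM in Day4 and Afp 2.32 and 1.05 CPM. Foxa2 reached 1.23 and 1.82 CPM and Ttr 0.944 and 1.89 CPM, with Dab2 and Sox7 between these and Gata4. The sum therefore says little about the markers at low levels. Gata6 rose from 60.4 and 93.3 to 10571 and 10070.0 normalised counts (log2 fold change 7.09, SE 0.10, adjusted p = 1.99e-15) and Afp had 0 counts in both Undiff libraries and 81 and 50 in Day4. The endocytic receptor gene Cubn moved against its list, from 1059 and 1253 to 96.1 and 87.5.

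Of 8 fibroblast markers 7 rose (87.5%, against 22.2% of all genes tested), and their sum went from 67.9 and 63.5 to 1911 and 1751 CPM. The collagen gene Col3a1 led them, from 77.1 and 57.4 to 40193 and 36401 normalised counts (log2 fold change 9.14, SE 0.09, adjusted p = 2.26e-16). The 1 that fell was Thy1, which R1 cells expressed at 709.7 and 689 normalised counts in Undiff. Of 6 endothelial markers 5 rose (83.3%), from a sum of 34.1 and 35.1 to 273 and 276 CPM, while Tek fell by 1.02 on the log2 scale. Of 4 smooth muscle markers 1, Acta2, rose (25%, near the 22.2% of all genes tested). The sum went from 75.8 and 72.2 to 143 and 187 CPM. Most endoderm, fibroblast and endothelial markers thus rose in the same libraries as Tbx3 and as the share of Klf4 among the Krüppel-like factors. Their part in the level of Tbx3 and in the Klf4 RNA that remained was not tested.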

How the data were processed

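RNA of mouse R1 ESCs was sequenced on the Illumina platform in 2 Undiff and 2 Day4 libraries, grouped by their sample titles. The authors used cutadapt for trimming, STAR (2.4.2a in the submitters' processing notes) for alignment to mm10 and htseq-count for assigning uniquely aligned fragments to genes. Raw whole-number counts per gene were deposited, with no normalization. Summary lines stayed out of library sizes, with ambiguous fragments at 1.84% to 1.91%. The labels name a strand-specific kit that depletes ribosomal RNA, which the methods of the study do not.

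Counts were scaled by TMM (factors between 0.975 and 1.03) and fitted with edgeR 4.0.16 (glmQLFit with its newer quasi-likelihood option, glmQLFTest) in R 4.3.3, without a replicate term. All 19891 genes with at least 1 count entered the fit and the Benjamini-Hochberg adjustment, and the thresholds of a call were those of the study. The SE is the size of the log2 fold change divided by the root of F. With 2 libraries per state the smallest two-sided exact permutation p is 0.333, and the adjusted p-values draw on a spread shared across genes. A floor of 3 counts stood at 0.0629 to 0.0935 CPM. The fit was tested on simulated counts with 200 changed genes.

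Levels per kb used the union of exons of GENCODE vM21 on GRCm38, the assembly of mm10, which gave the positions too. Both this annotation and the RefSeq promoter windows were matched by symbol and differ from the annotation used for counting. All factors are named. From each other list, up to 2 called genes with the lowest and 2 with the highest log2 fold changes at a mean of at least 1 CPM were taken, with genes moving against their list, and a few genes that were not called were added after their values were seen. The factors, lists and motifs were chosen with earlier results of these data known. Alternatives were DESeq2 1.42.0 with and without shrinkage, other scalings, filters and thresholds, thinning to the smallest library, a replicate block, leaving out each library and other gene lengths. 1 gene that this rule names is not reported here.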

Additional observations from a re-analysis of the deposited data

How the results depend on the processing

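All 15 alternative settings of the test gave 9 naive factors lower and Tbx3 higher, 14 of them planned and 1, edgeR's older quasi-likelihood fit, chosen after seeing the data. The log2 fold change of Tbx3 ranged from 1.12 to 1.51 over them and that of Prdm14 from −6.54 to −5.01. The ends of both ranges came from fits with 1 library left out, which for Prdm14 was a Day4 library. Such fits rest on the spread pooled with the other state. The largest adjusted p-value over the settings was 0.00223 for Tbx3 in place of 2.04e-08. Without a minimum fold change, 7004 of all genes were lower and 7305 higher, in place of 4101 and 4420. The same setting gave 8 lower and 2 higher in the FGF and ERK input, and 3 lower and 1 higher among the genes tied to exit. It gave 5 lower and 4 higher among relatives of the nuclear receptors, CP2 and YY1. It also gave 2 higher each in the core and formative list, the Krüppel-like relatives and the smooth muscle markers. In the LIF and STAT3 input, 1 was higher. In the core and formative list, Fgf5 lay at the threshold, so that 1 gene was higher with library totals as scaling and with thinned libraries, and 0 to 1 with 1 library left out. Of the endothelial markers, Tek lay at the threshold, so that 0 were lower with library totals and in edgeR's glmTreat test against a 2-fold change, and 0 to 1 with 1 library left out. The other scalings moved the median of all genes by −0.04 and 0.07 on the log2 scale.

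The replicate number as a block left the naive factors at 9 lower and 1 higher and gave 4101 lower and 4414 higher among all genes. Deviations of libraries with the same number correlated at −0.01, so no shared deviation by replicate number was seen. This value cannot tell whether libraries of the same number were grown together. With the longest transcript as length, Klf5 was at 15.3 CPM per kb in Undiff and Tbx3 took 49.6% of the summed level in Day4. Without length scaling, Tbx3 took 63.3% in Day4 and Zfp42 40.9% in Undiff. Depth limits Prdm14 in Day4, at 5 and 11 counts, and the genes at the floor, for which no fold change is given.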

Other observations

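Within Undiff, the 10 naive factors were all higher in replicate 2 than in replicate 1, by between 3.87% for Prdm14 and 31.1% for Tbx3, with Nr0b1 at 25.4% and Zfp42 at 17.0%. Among all 15704 genes with a count in every library and a mean normalised count of at least 5, 48.4% were higher in replicate 2. Of the 14 other genes of the naive state, 12 were higher in replicate 2, and of 9 core and formative genes 5 were. In Day4, 8 of the 10 factors were higher in replicate 1, against 49.6% of all genes. The genes are not independent of one another, and with 2 libraries per state these are values of single libraries, without a test.

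The genes whose pattern over the 4 libraries was most like the median of the naive factors were sought among 9256 other genes with at least 10 CPM in Undiff, by the Euclidean distance of log2(CPM + 0.1) values centred on Undiff. The 3 nearest were Rpl39l, a ribosomal protein gene, at a distance of 0.196, Cbs, the cystathionine synthase, at 0.199, and Tuba3a, a tubulin gene, at 0.213. In Day4 they kept 2.27%, 2.56% and 2.28% of their Undiff level.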
